A study of Mus musculus with 8 samples.

Results

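The regions described here are glucocorticoid receptor (GR) peaks of mouse skeletal muscle that carry the marks of an active enhancer away from H3K4me3. They were chosen by measured peak positions: a GR peak on chromosomes 1 to 19 or X had to share at least 1 base with an H3K4me1 peak and with an H3K27ac peak, and no base with an H3K4me3 peak. This rule kept 4467 of 23187 GR peaks, which is 19.3%. The other GR peaks were 12338 on H3K4me3, 4622 on H3K4me1 without either other mark, 188 on H3K27ac alone and 1572 on none of the marks. The overlap with these histone marks is therefore how the peaks were selected and is given below as a description.

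Chromatin was immunoprecipitated from skeletal muscle nuclei of wild-type (WT) C57/Bl6J mice aged 10 to 12 weeks, with antibodies against GR, H3K27ac, RNA polymerase II (Pol2), H3K4me1, CTCF and H3K4me3. Each antibody had 1 library, beside 2 input libraries without antibody, Input1 for GR, H3K27ac, Pol2 and H3K4me1 and Input2 for CTCF and H3K4me3. All 8 samples shared genotype, strain, tissue and age range, and no hormone treatment is named in the labels. With no replicate library, no test between conditions or antibodies was possible, and the intervals below are exact Clopper-Pearson 95% intervals that cover the counting error of peaks alone, with neighbouring peaks taken as independent. Sequencing depth is unknown, so a region without a peak was below the threshold of that list and is not shown to lack the protein or mark.

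GR is a nuclear receptor that enters the nucleus on binding glucocorticoid hormone and binds DNA as a dimer at palindromic glucocorticoid response elements (GRE), or through half-sites and other factors. H3K4me1 lies over enhancers and their surroundings, H3K27ac over regulatory DNA in use, and H3K4me3 over promoters. In muscle, glucocorticoids are known for promoting protein breakdown, changing the use of glucose and amino acids, and inducing genes such as Fkbp5 and Tsc22d3.

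A GRE was taken as AGAACA and TGTTCT separated by 3 bases, with up to 2 of its 12 defined bases mismatched, in the 200 bases around the midpoint of a peak. The palindrome reads alike on both strands. It was matched without any mismatch in 5 of the 4467 peaks, shown here because they are the closest to the consensus. Sequences are the plus strand of the RefSeq assembly of GRCm38, with matched bases in capitals.
P4ha2, chr11:54113155-54113229: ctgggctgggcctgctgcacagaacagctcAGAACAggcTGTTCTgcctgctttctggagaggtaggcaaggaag
St3gal5, chr6:72162253-72162327: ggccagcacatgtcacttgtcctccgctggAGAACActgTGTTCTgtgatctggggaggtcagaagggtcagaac
Hivep2, chr10:14032735-14032809: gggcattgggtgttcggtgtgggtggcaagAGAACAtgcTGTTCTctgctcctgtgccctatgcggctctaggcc
Hk2, chr6:82771224-82771298: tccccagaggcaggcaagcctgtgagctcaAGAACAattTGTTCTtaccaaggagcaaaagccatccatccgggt
Plk3, chr4:117136265-117136339: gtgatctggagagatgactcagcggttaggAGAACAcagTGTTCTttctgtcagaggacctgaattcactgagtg

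The gene before each sequence is the one with the nearest protein-coding transcription start site (TSS). The peak at P4ha2, a collagen prolyl hydroxylase subunit, was 519 bases wide, lay in an intron 5834 bases from that TSS and overlapped a Pol2 peak. The peak near St3gal5, a ganglioside synthase, was 383 bases wide, intergenic and 47088 bases from the TSS, and it also overlapped Pol2. The peak at Hivep2, a zinc finger transcription factor, was 318 bases wide, intronic and 66084 bases away, without a Pol2 peak. The peak in an intron of Hk2, which encodes the muscle hexokinase that traps glucose in the cell, was 238 bases wide, 1745 bases from the TSS and overlapped Pol2. The peak near Plk3, a polo-like kinase, was 207 bases wide, 2320 bases away and without Pol2. All 15 bases of the Plk3 site were soft-masked as repeat sequence in the assembly, whereas 0 bases were masked in the other 4 sites.

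The next sites are shown because the nearest gene of each is known as a GR target. Most GRE matches in these peaks are imperfect. Of 408 members with a GRE, 75 had 1 mismatch at best and 328 had 2. The sites are the best match for each of 6 GR target genes, chosen by fewest mismatches and then by peak width. All but Fkbp5, which had 2, had 1 mismatch, and these low numbers follow from that choice. Mismatched bases of the palindrome stand in lower case.
Pik3r1, chr13:101812112-101812186: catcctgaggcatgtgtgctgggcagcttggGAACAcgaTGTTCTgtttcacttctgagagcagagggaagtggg
Tsc22d3, chrX:140513524-140513598: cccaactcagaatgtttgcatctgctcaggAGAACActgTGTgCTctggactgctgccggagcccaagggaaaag
Zbtb16, chr9:48775794-48775868: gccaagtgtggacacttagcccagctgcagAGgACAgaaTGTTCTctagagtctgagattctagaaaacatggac
Klf15, chr6:90472223-90472297: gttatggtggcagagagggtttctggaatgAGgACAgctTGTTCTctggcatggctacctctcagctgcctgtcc
Cebpb, chr2:167774547-167774621: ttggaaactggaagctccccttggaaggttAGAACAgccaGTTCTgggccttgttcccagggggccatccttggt
Fkbp5, chr17:28513095-28513169: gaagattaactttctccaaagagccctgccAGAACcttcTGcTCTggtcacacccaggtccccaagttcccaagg

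The Pik3r1 site lay 43886 bases from the TSS of this gene for a regulatory subunit of PI3 kinase, in a peak 482 bases wide that overlapped Pol2. The Tsc22d3 peak was 439 bases wide, 29676 bases from the TSS and overlapped Pol2. This gene encodes the glucocorticoid-induced leucine zipper protein. The Zbtb16 site lay in an intron 60180 bases from the TSS, the Klf15 site in an intron 5122 bases away and the Cebpb site in intergenic sequence 85675 bases away, and none of these 3 peaks overlapped Pol2. Zbtb16, Klf15 and Cebpb each encode a transcription factor. The Fkbp5 site lay in a peak 989 bases wide, in an intron 1755 bases from the TSS, which overlapped Pol2. Fkbp5 is a co-chaperone of GR that lowers its affinity for hormone. Among the 90 peaks nearest to a gene of the GR target list, 19 held a GRE, spread over 10 of 19 such genes. Of all members 9.13% held one, and of all GR peaks 6.55%.

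A second set is shown because the share of peaks with a MEF2 match differed between the classes of GR peak, as given below. MEF2 factors are muscle transcription factors that bind an AT-rich 10-base site. These are the widest 4 peaks with an exact match, which is in capitals.
Smyd2, chr1:189960631-189960700: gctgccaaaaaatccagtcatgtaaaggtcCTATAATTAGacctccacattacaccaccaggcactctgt
Asb2, chr12:103362572-103362641: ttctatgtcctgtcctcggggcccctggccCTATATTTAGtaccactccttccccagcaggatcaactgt
Bcl7a, chr5:123364740-123364809: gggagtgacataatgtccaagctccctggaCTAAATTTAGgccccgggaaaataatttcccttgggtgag
Art3, chr5:92390748-92390817: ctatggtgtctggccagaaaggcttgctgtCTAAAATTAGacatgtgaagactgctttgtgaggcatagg

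Their peaks were 516 bases wide near Smyd2, 511 bases near Asb2, 464 bases in Bcl7a and 436 bases in Art3. The peaks near Smyd2 and Asb2 and the one in Art3 overlapped Pol2, and the one in Bcl7a did not. Asb2 encodes a substrate-binding subunit of a ubiquitin ligase of muscle, and Smyd2 a lysine methyltransferase.

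The GR peaks at active enhancers were mostly short, and few stood near a protein-coding TSS. Their median width was 222 bases, with quartiles of 164 and 302.5 bases and a range of 123 to 3106 bases. The lowest width, 123 bases, was shared by 244 peaks, while 212 peaks reached 500 bases and 9 reached 1000. The median width was 246 bases for GR peaks on H3K4me3, 170 bases on H3K4me1 alone and 165 bases on none of the marks.

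Their midpoints lay a median of 17916 bases from the nearest protein-coding TSS, with quartiles of 6416.5 and 46333 bases, and a median of 7299 bases from the nearest TSS of any annotated gene. Within 1 kb of a TSS stood 222 peaks, or 4.97% (4.35 to 5.65%), against 46.8% of all GR peaks and 84.1% of those on H3K4me3. Counting the TSS of all annotated genes, 12.9% of the members stood within 1 kb of one. Introns of protein-coding genes held 54.3% of the midpoints, intergenic sequence 36.5% and exons 4.19%, with midpoints within 1 kb of a TSS counted apart. For GR peaks on H3K4me1 alone these shares were 50.5% in introns, 41.1% in intergenic sequence and 4.59% in exons. For all GR peaks they were 26.2% in introns, 24.02% in intergenic sequence and 2.97% in exons. Upstream of the nearest TSS lay 1814 of the 4467 midpoints.

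Chromosome X held 15 of these peaks among its 265 GR peaks, a share of 5.66% (3.20 to 9.16%). On the 19 autosomes the share was between 15.4% on chromosome 3 and 23.1% on chromosome 8. Distal H3K27ac peaks, those on H3K4me1 without H3K4me3, overlapped a GR peak in 11.2% of cases on chromosome X (6.53 to 17.5%, n = 143), against 20.5% on the autosomes (20 to 21%, n = 22924).

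The marks that defined these peaks were arranged differently around them. H3K4me1 enclosed the GR peak fully in 98.5% of cases, and H3K27ac did so in 31.7%. In 2098 peaks, or 47.0%, the midpoint lay outside H3K27ac although an edge touched it, and 18.3% of the GR peaks touched at least 2 separate H3K27ac peaks. Across all members, 53.0% of midpoints were covered by an H3K27ac peak, against 75.8% at 200 bases to the left and 77.2% at 200 bases to the right. At 3 kb the coverage was 13.7% on the left and 12.7% on the right. The profile thus had a dip at the GR midpoint and a shoulder on each side. The same dip was present at GR peaks on H3K4me3, of which 58.5% had their midpoint inside H3K27ac.

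**Figure D1:**
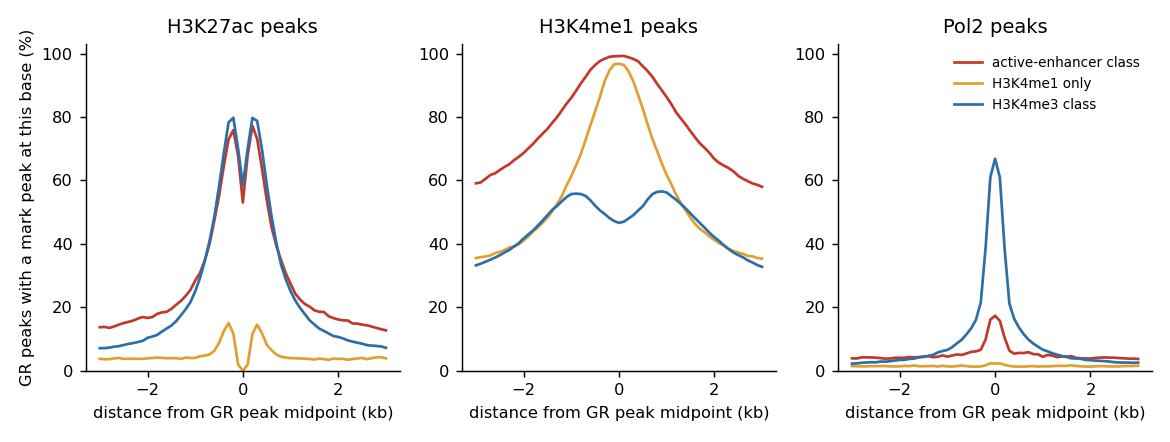
Share of GR peaks (y axis, percent) with a peak of H3K27ac, H3K4me1 or Pol2 at each distance from the GR midpoint (x axis, kb), in steps of 100 bases, for the active-enhancer class, GR peaks on H3K4me1 only and GR peaks on H3K4me3. H3K27ac in the active-enhancer class stands at 53.0% at the midpoint and 77.2% at 200 bases to the right, while Pol2 in that class is highest at the midpoint; the histone marks near the midpoint follow from how the classes were drawn.

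The H3K4me1 peaks under these GR peaks were long, with a median of 7763 bases over the GR peaks, against 3343 bases under GR peaks on H3K4me1 alone. The 4467 GR peaks lay in 3199 H3K4me1 peaks, of which 2446 held 1 member. In 52 of them there were at least 5 members, which together made 360. The 30 members of the largest group lay in 1 H3K4me1 peak of 173041 bases over Zbtb16, chr9:48661158-48834198, and 29 of the 30 overlapped Pol2. Zbtb16 encodes a zinc finger repressor that glucocorticoids are known to induce.

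Other large groups differed in Pol2. The H3K4me1 peak over Nfix, chr8:84701784-84803388, held 17 members, of which 2 overlapped Pol2. Nfix encodes a nuclear factor I protein with a role in the fetal muscle programme. The one over Tns1, which encodes the focal adhesion protein tensin 1, held 14 members with 4 on Pol2. Near Klf14, 7 of 11 members overlapped Pol2, and near Tgm2 1 of 9.

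Pol2 is not part of the selection and was found at a minority of these peaks. A Pol2 peak overlapped 1212 of the 4467, or 27.1% (25.8 to 28.5%), against 51.3% of all GR peaks. The share was 84.1% for GR peaks on H3K4me3 (83.4 to 84.7%), 3.35% on H3K4me1 alone (2.85 to 3.91%) and 4.64% on none of the marks (3.66 to 5.80%). The 188 peaks on H3K27ac alone had Pol2 in 48.4% (41.1 to 55.8%). The share of the members was thus below that of both the H3K4me3 and the H3K27ac-only class and above that of both classes without H3K27ac, and its interval met none of theirs. The same libraries serve every class, so these are differences between sets of peaks in 1 set of libraries.

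**Figure D2:**
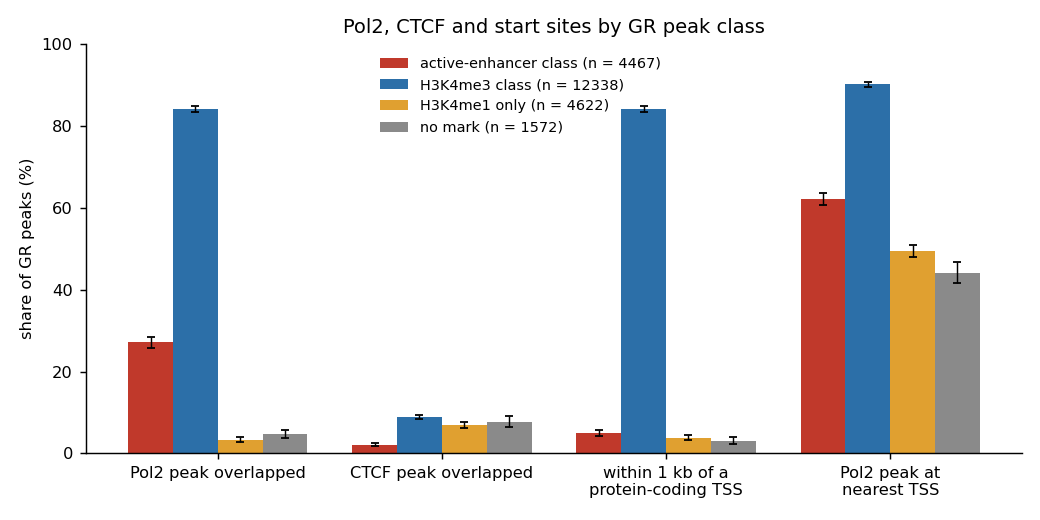
Share of GR peaks (y axis, percent) that overlap a Pol2 peak, overlap a CTCF peak, lie within 1 kb of a protein-coding TSS or have a Pol2 peak at the nearest TSS, for the active-enhancer class and 3 other classes. Bars are shares and error bars exact 95% intervals; the active-enhancer class has 27.1% with Pol2 and 2.10% with CTCF.

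Peaks just inside and just outside the rule were compared by their values. The 139 members that shared 1 to 10 bases with H3K27ac had Pol2 in 7.19% of cases, and the 140 peaks on H3K4me1 with an H3K27ac peak within 10 bases but no shared base had it in 8.57%. The 127 members with an H3K4me3 peak within 100 bases had Pol2 in 54.3% (45.3 to 63.2%), and the 27 excluded peaks with both other marks and 1 to 10 bases of H3K4me3 had it in 59.3% (38.8 to 77.6%). With H3K4me3 within 1 kb, 235 of 494 members overlapped Pol2, or 47.6%.

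Among the members, Pol2 was more frequent near a TSS and at wide peaks. It was present at 37.4% of those within 1 kb of a TSS (31.0 to 44.1%), 34.0% at 1 to 10 kb, 25% at 10 to 50 kb and 19.9% beyond 50 kb (17.5 to 22.5%). In 4 groups of members of increasing width the share was 17.8%, 21.8%, 28.4% and 40.7%. Wider peaks have more bases with which to meet another peak, and the part of width was not tested. Members whose midpoint lay inside H3K27ac had Pol2 in 32.0% (30.1 to 33.9%), against 21.6% of those whose midpoint lay outside (19.9 to 23.5%). In H3K4me1 peaks with at least 5 members the Pol2 share was 51.7% (46.4 to 56.9%), against 25% for the other members (23.7 to 26.3%).

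Distal H3K27ac peaks with and without GR were also set side by side within 4 groups of H3K27ac peak width. In the narrowest group, 5.80% of peaks with GR overlapped Pol2 (3.63 to 8.73%, n = 362), against 1.94% without GR (1.59 to 2.34%, n = 5417). In the second group the shares were 7.78% with GR and 2.53% without, and in the third 12.3% with GR and 4.58% without. In the widest group, of 448 bases or more, 37.1% of those with GR overlapped Pol2 (35.2 to 39.0%, n = 2562), against 13.2% without GR (12.1 to 14.4%, n = 3179). In each of the 4 groups the interval with GR lay above the one without.

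The nearest TSS of a member often had Pol2 as well. A Pol2 peak lay within 1 kb of that TSS for 2774 members, or 62.1% (60.7 to 63.5%), against 73.3% of all GR peaks. GR peaks on H3K4me1 alone had 49.5% (48.1 to 51.0%) and those on none of the marks 44.1% (41.7 to 46.6%). Members with Pol2 at the nearest TSS overlapped Pol2 themselves in 31.5% (29.7 to 33.2%), against 20% of members without (18.1 to 22.0%). A GR peak stood within 1 kb of the nearest TSS for 61.4% of the members, against 75.5% of all GR peaks and 51.4% of those on H3K4me1 alone. Here a peak that itself lay within 1 kb of that TSS was counted.

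CTCF, which binds insulators and the ends of chromatin loops, was rare at these peaks. A CTCF peak overlapped 94 members, or 2.10% (1.70 to 2.57%), against 7.09% of all GR peaks. The share was 8.95% on H3K4me3, 6.99% on H3K4me1 alone and 7.63% on none of the marks, with intervals all above that of the members. On H3K27ac alone it was 1.06% (0.129 to 3.79%), which overlaps the members' interval. At distal H3K27ac peaks without GR it was 0.686% (0.572 to 0.817%). Between the midpoint and the nearest TSS a CTCF peak lay for 17.2% of members (16.1 to 18.4%), against 20.6% of GR peaks on H3K4me1 alone (19.4 to 21.7%), which stood farther away, with a median of 24060.5 bases.

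The sequence under the members held GRE matches less often than GR peaks on H3K4me1 alone or on none of the marks, and MEF2 matches more often. A GRE with up to 2 mismatches was found in 408 members, or 9.13% (8.30 to 10.0%), against 6.55% of all GR peaks. GR peaks on H3K4me1 alone had one in 12.8% (11.9 to 13.8%), those on none of the marks in 24.2% (22.1 to 26.4%) and those on H3K4me3 in 0.916% (0.755 to 1.10%). The 188 GR peaks on H3K27ac alone had one in 13.3% (8.79 to 19%), an interval that overlaps that of the members. Windows 2 kb beside the members that met no GR peak held one in 2.12%, and distal H3K27ac peaks without GR in 1.51%. Windows of these H3K27ac peaks were centred on the H3K27ac midpoint, and those of members on the GR midpoint. This holds for every motif below, and the part of this placement was not tested. With up to 1 mismatch, 80 members held a GRE.

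The matches lay at the centre of the members. There were 162 GRE matches in the 50 bases to the left of the midpoint and 165 in the 50 bases to the right, against 50 and 48 in the next 50 bases on each side. In bins of 50 bases from 100 to 400 bases away, the number was 11 to 31. Members with a GRE overlapped Pol2 in 24.8% (20.6 to 29.2%), against 27.4% of members without one (26.0 to 28.8%), and these intervals overlapped. A soft-masked share of at least 50% of the window was found in 3.68% of members with a GRE (2.07 to 5.99%), against 1.36% of those without one (1.02 to 1.76%).

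The exact MEF2 site was found in 123 members, or 2.75% (2.29 to 3.28%), against 1.13% of all GR peaks. The share was 0.559% on H3K4me3, 1.17% on H3K4me1 alone (0.879 to 1.52%) and 0.700% on none of the marks. GR peaks on H3K27ac alone had it in 2.66% (0.869 to 6.10%, n = 188), so the members' share did not stand apart from theirs. Distal H3K27ac peaks without GR had it in 0.360% (0.278 to 0.457%) and the windows 2 kb beside members in 0.323%. Of the 123 members with a MEF2 site, 54 overlapped Pol2, or 43.9% (35.0 to 53.1%), against 26.7% of those without one (25.3 to 28.0%). A GRE was present in 8 of the members with a MEF2 site, or 6.50% (2.85 to 12.4%). Of members without a MEF2 site, 9.21% held a GRE (8.36 to 10.1%), an overlapping interval. The MEF2 share of members was 1.37% in windows of 100 bases and 4.23% in windows of 400 bases. Their share over that of distal H3K27ac peaks without GR was a ratio of 9.64 in 100 bases, 7.66 in 200 bases and 2.72 in 400 bases. The windows without GR were centred on the H3K27ac peak rather than on a GR peak, so the ratio compares windows placed differently.

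The median GC content of the windows was 53.5% in members, against 52% on H3K4me1 alone, 50% on H3K27ac alone, 49% on none of the marks and 66% on H3K4me3. In 4 groups of rising GC content, the MEF2 share of members was 5.48%, 2.82%, 1.89% and 1.64%. For GR peaks on H3K4me1 alone in the same groups it was 2.16%, 1.19%, 0.884% and 0.288%. The GRE share of members in these groups was 16.8%, 10.0%, 7.85% and 4.17%, against 21.6%, 13.1%, 9.72% and 5.67% on H3K4me1 alone. The order of both classes was the same in each group for both motifs, but the GRE intervals of both classes overlapped in all 4 groups. The MEF2 intervals were apart in the groups of lowest and highest GC content and overlapped in those between.

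**Figure D3:**
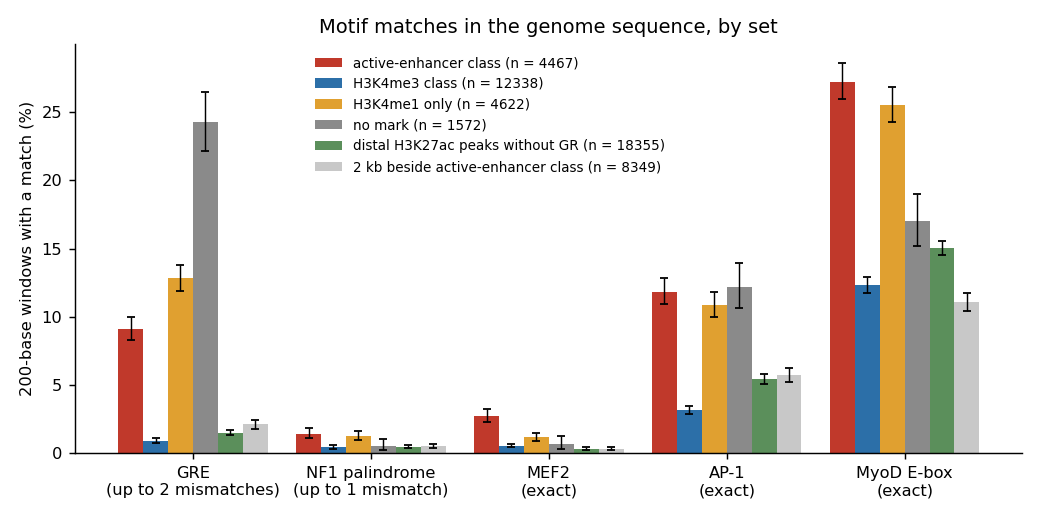
Share of 200-base windows (y axis, percent) with a match to 5 motifs, for the active-enhancer class, 3 other classes of GR peak, distal H3K27ac peaks without GR and windows 2 kb beside the active-enhancer class. Windows are centred on the GR midpoint for GR peaks and on the H3K27ac midpoint for H3K27ac peaks without GR. Bars are shares and error bars exact 95% intervals; the active-enhancer class has the highest MEF2 share of those shown, 2.75%, and a GRE share of 9.13% that lies below the 12.8% of H3K4me1-only peaks and the 24.2% of peaks without a mark.

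Other motifs of muscle and signalling factors were searched in the same windows on both strands, and they can overlap one another. The E-box CAGCTG, bound by MyoD and myogenin, was in 27.2% of members (25.9 to 28.6%), against 18.2% of all GR peaks. It was in 25.5% of GR peaks on H3K4me1 alone (24.3 to 26.8%), an overlapping interval, and in 15.1% of distal H3K27ac peaks without GR. TGANTCA, the site of AP-1 (Fos and Jun), was in 11.8% of members, against 7.05% of all GR peaks. It was in 10.9% of GR peaks on H3K4me1 alone, 12.2% on none of the marks and 5.44% of distal H3K27ac peaks without GR. The nuclear factor I palindrome was taken as TTGGC and GCCAA separated by 5 bases with up to 1 mismatch. It was in 1.46% of members, 0.815% of all GR peaks and 1.30% on H3K4me1 alone, against 0.496% without GR.

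TTGCNNAA, a site of C/EBP factors, was in 8.60% of members (7.79 to 9.46%), against 7.52% of all GR peaks. It was in 11.6% of GR peaks on H3K4me1 alone (10.7 to 12.6%) and 16.5% of those on none of the marks (14.7 to 18.4%). Distal H3K27ac peaks without GR had it in 7.27%. The half-site TGTTCT, which is part of the GRE, was in 25.1% of members, 17.1% of all GR peaks, 28.1% on H3K4me1 alone and 16.7% without GR. TGTGGT, of RUNX factors, was less frequent in members at 13.3% (12.4 to 14.4%) than in windows 2 kb beside them at 16.8% (16.0 to 17.7%). It was in 9.74% of all GR peaks and 13.0% of those on none of the marks. GR peaks on H3K4me1 alone had it in 14.5% (13.5 to 15.6%), an interval that overlaps that of the members. GGGCGG, of SP and KLF factors, was in 7.59% of members, 36.1% of all GR peaks and 61.0% of GR peaks on H3K4me3. None of the 18 motifs searched was found in 691 members, or 15.5%. This share was not counted for other GR peaks, so it has no background here.

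The GR list carries no score, and the sources used here do not say how it was ordered. Along it, cut into 10 equal groups of members, the median width was 345 bases in the first group and 160 bases in the last. The GRE share was 34.0% in the first group (29.6% at the lower bound), 18.6% in the second and 9.19% in the third, and 3.13% in the last. The Pol2 share was 41.6% in the first group and 19.2% in the last. The MEF2 share was 1.34% in the first group and 4.03% in the last, and in the 8 groups between them it was 1.57% to 3.58%, with wide intervals.

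**Figure D4:**
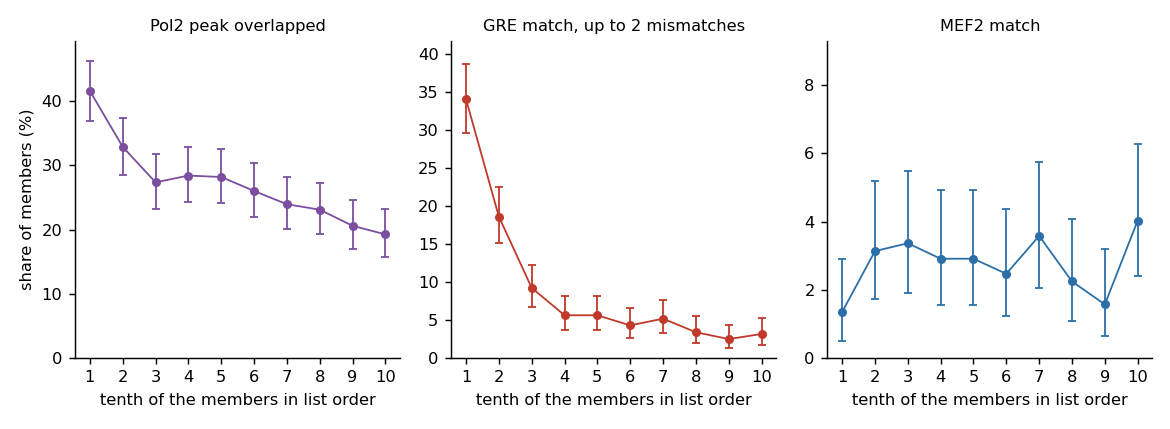
Share of members (y axis, percent) that overlap Pol2, hold a GRE with up to 2 mismatches or hold a MEF2 match, in 10 equal groups of members in the order of the deposited GR list (x axis, first to last). Points are shares and error bars exact 95% intervals; GRE matches stand at 34.0% in the first group and 3.13% in the last, while MEF2 lies between 1.34% and 4.03%.

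The lower GRE share beside GR peaks on H3K4me1 alone was also present when the whole GR list was cut into 5 equal groups. In the first it was 21.8% of members (19.5 to 24.2%), against 33.0% on H3K4me1 alone (29.8 to 36.4%). In the following 4 groups the members had 6.08%, 4.88%, 3.76% and 2.99%, against 15.1%, 11.2%, 6.53% and 4.58% on H3K4me1 alone. The GRE intervals of both classes overlapped in the fourth and the fifth group and were apart in the others. MEF2 in the first group was in 2.45% of members (1.66 to 3.49%), against 0.631% on H3K4me1 alone (0.205 to 1.47%). In the following 4 groups it was in 3.11%, 2.93%, 2.59% and 2.87% of members, against 0.717%, 1.53%, 0.946% and 1.73% on H3K4me1 alone. The MEF2 intervals of both classes were apart in the first and the second group and overlapped in the other 3.

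The widest member, chr7:142549819-142552924, spanned 3106 bases between genes, 7224 bases from a TSS of Nctc1, a muscle-expressed non-coding RNA, and 17590 bases from the nearest protein-coding TSS, that of Mrpl23, a mitochondrial ribosome protein. Plin4, a lipid droplet coat protein, had a pair of wide members over exons, of 2295 and 1899 bases. Both lay in 1 H3K4me1 peak of 7072 bases.

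Irf2bp2, a transcriptional co-repressor, was the nearest gene of members of 1234 and 1131 bases at 142352 and 72890 bases from its TSS. Others among the widest 10 were those nearest to Fignl1 at 1113 bases, in an intron and the one of the 10 with a CTCF peak, to Dnajc11 at 1099 bases, to Zbtb16 at 1081 bases and to Fkbp5 at 989 bases. Of these 10 members, 8 overlapped Pol2, and the one at Fkbp5 was the one with a GRE in its 200-base window. The window is narrower than these peaks.

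The 4467 members had 2256 different nearest protein-coding genes. Of these, 1316 were nearest to 1 member and 174 to at least 5, which together accounted for 1177 members. Tns1 and Zbtb16 were each nearest to 23 members, of which 6 at Tns1 and 22 at Zbtb16 overlapped Pol2. Gse1, which encodes a component of a histone deacetylase complex, had 19 and Ppp1r3c, which targets protein phosphatase 1 to glycogen, had 16. Irf2bp2 had 14, and Zmiz1, Tomm20 and Zfp36l1 had 12 each. Zmiz1 encodes a transcriptional co-activator, Tomm20 a mitochondrial import receptor and Zfp36l1 a protein that speeds the decay of AU-rich mRNAs. Dusp1, a phosphatase of MAP kinases, and Smad3, a transducer of TGF-beta and myostatin signals, had 11 each. The members nearest to Tomm20 lay 28169 to 140234 bases from its TSS, so that nearest here does not mean close.

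Genes were then described by a member within 25 kb of a protein-coding TSS. Known GR targets had one in 15 of 26 genes, against 11.6% of all protein-coding genes and 16.0% of genes with H3K4me3 at a TSS. The 15 were Fkbp5, Tsc22d3, Per1, Klf15, Ddit4, Sgk1, Dusp1, Zbtb16, Pdk4, Cebpb, Sesn1, Angptl4, Pik3r1, Cdkn1a and Hif3a. The median gene of this list had 1 member, against 0 over all protein-coding genes. Dusp1 had 13 such members, Fkbp5 9 and Klf15 5. The annotation extends Dusp1 over chr17:26505590-26562128, and members were counted from every annotated protein-coding TSS of a gene. At Fkbp5, 7 of the 9 overlapped Pol2 and 3 held a GRE. Ddit4, an inhibitor of mTOR signalling, had 2 members, the widest of 856 bases. Pdk4, the kinase that shuts off pyruvate dehydrogenase, had 1 member of 186 bases at 9144 bases.

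The 11 targets without a member within 25 kb were Klf9, Glul, Cebpd, Nfkbia, Mt1, Mt2, Errfi1, Rgs2, Anxa1, Lcn2 and Tat. Of these, 10 had some GR peak of another class within 25 kb, and Tat, a liver enzyme, had none. A GR peak of any class lay within 25 kb for 25 of the 26 targets. The background was 12757 of 21670 protein-coding genes and 10852 of 13310 genes with H3K4me3 at a TSS. Klf9, Cebpd, Nfkbia and Errfi1 were still the nearest gene of members farther out, with 3 at Klf9, 3 at Cebpd, 1 at Nfkbia and 4 at Errfi1. A member nearest to Klf9 was 767 bases wide and lay 84042 bases upstream of the TSS.

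In several lists of contractile, metabolic and clock genes, many genes had a member within 25 kb. The background was 11.6% of all protein-coding genes and 16.0% of genes with H3K4me3 at a TSS. The share was 17 of 21 for glucose and glycogen genes, 18 of 25 for fast or common sarcomere genes, 13 of 19 for the circadian clock and 11 of 17 for calcium handling, and the median gene of each of these 4 lists had 1 member. Among the glucose genes, Txnip, a brake on glucose uptake, had 8 members, and Gys1, muscle glycogen synthase, and Ppp1r3c had 4 each. Ldb3, a Z-disc protein, had 4 members, all on Pol2. Mylk2, a myosin light chain kinase, and Tcap, which caps titin at the Z-disc, had 3 each. Slow sarcomere genes had members at 2 of 12, Tnni1 with 3 and Mybpc1 with 1.

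Among calcium genes, Jph2, which holds the junction between T-tubule and reticulum, had 7 members, all on Pol2. The calcium buffer Pvalb and the voltage sensor Cacna1s had 3 each, also all on Pol2. In the clock list, the nuclear receptor Nr1d1 and the transcription factor Tef had 6 each and the repressor Bhlhe41 had 4. Among 26 genes of fatty acid oxidation and lipid droplets, 12 had a member, with 5 at Ucp3, a mitochondrial uncoupling protein, and 4 each at Plin4 and Plin5. Plin4 and Plin5 lie beside each other and share members.

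Muscle transcription factors had members at 10 of 18 genes, with 7 at Nfix, 5 at Nfic and 4 at Tead4. In the atrophy and proteolysis list 7 of 22 genes had one. Trim63, the ubiquitin ligase MuRF1, had 6 members, of which 5 overlapped Pol2, and the autophagy gene Map1lc3b had 4 and the ubiquitin ligase Nedd4 had 3. Fbxo32, the ubiquitin ligase atrogin-1, had 2, both on Pol2. Insulin, IGF and mTOR genes had members at 8 of 24, with 2 each at Sesn1 and Irs2 and 1 at Grb10. Genes of glutamine and amino acid handling had members at 7 of 16, with 3 at Bcat2, which starts the breakdown of branched-chain amino acids, and 2 at the amino acid transporter Slc7a5. Neuromuscular junction genes had members at 2 of 14, Dok7 with 4 and Colq with 1.

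Housekeeping genes had members at 4 of 14, led by Actb with 5. Several lists of markers of other cell types lay below the background of 11.6%, but the interval of each included it. Liver markers had members at 0 of 14 (0 to 23.2%), immune markers at 1 of 14, endothelial markers at 1 of 12, neuron markers at 1 of 11 and adipocyte markers at 1 of 10. Other lists lay above the background, at 2 of 12 fibro-adipogenic markers, 3 of 10 Schwann markers and 4 of 11 satellite cell markers, again with intervals that included it. Gsn had 6 of these members and Sdc4 had 5. Muscle fibre markers had members at 7 of 8, which were Acta1, Ckm, Ttn, Tnnt3, Myh4, Atp2a1 and Pvalb, while Mylpf had none within 25 kb. All 8 fibre markers had a Pol2 peak at a TSS, against 10171 of 21670 protein-coding genes. Pol2 was at a TSS of 9 of 12 fibro-adipogenic, 6 of 12 endothelial, 4 of 11 satellite cell and 3 of 10 Schwann markers. It was there for 2 of 10 adipocyte, 1 of 14 immune, 0 of 14 liver and 0 of 11 neuron markers. A larger share of other cells and a stronger signal per cell cannot be told apart in bulk tissue, and the lists differ in how many genes have Pol2 at a TSS, whose part was not tested.

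**Figure D5:**
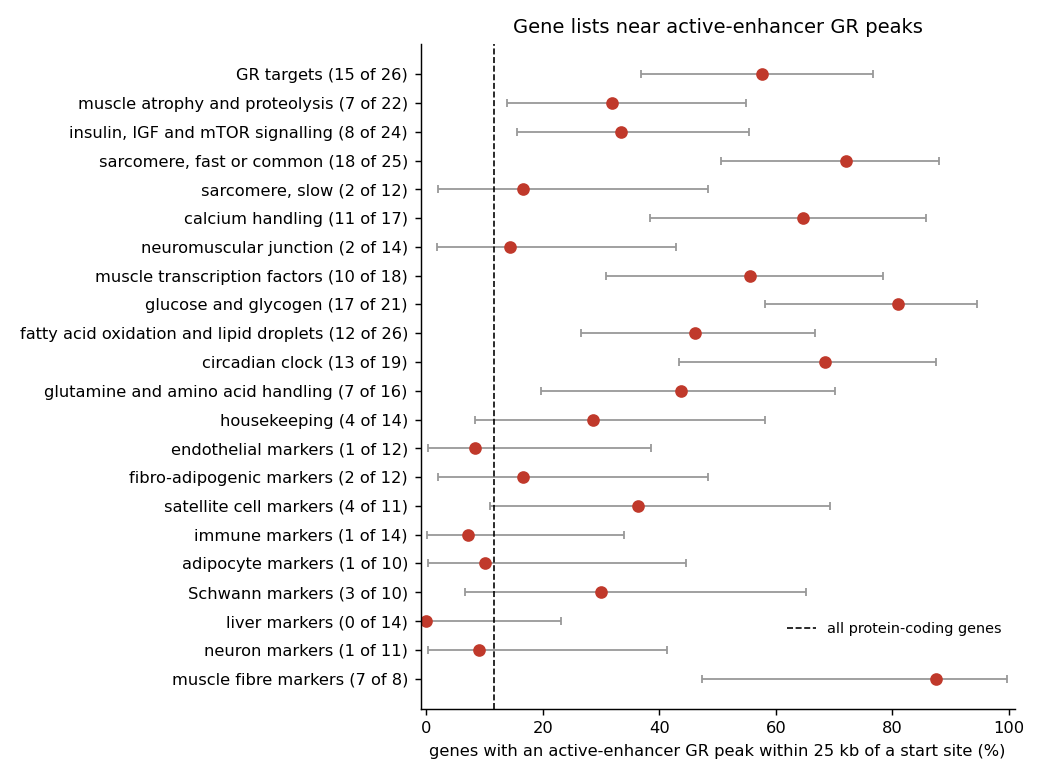
Share of the genes of each list (x axis, percent) with a GR peak of the active-enhancer class within 25 kb of a TSS, with exact 95% intervals, and the number of genes in brackets. The dashed line marks the 11.6% of all protein-coding genes; glucose and glycogen genes stand at 17 of 21 and liver markers at 0 of 14.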

How the data were processed

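The authors deposited 6 peak lists, 1 per antibody, with positions (start and end in bases) as the values used here, and for CTCF a linear fold of enrichment (a ratio), which was read but not printed. Per the submitters' processing notes, bcl2fastq 2.17.1.14, Bowtie 1.0.0, MACS2 and the build mm10 were used. The sources used here give neither their roles, thresholds and any blacklist nor the depth of a library, which limits what a missing peak means. The lists held 0 value columns of samples that could not be assigned.

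Peaks on chromosomes 1 to 19 and X were kept and overlap meant at least 1 shared base. Genes came from GENCODE M21 and sequence from RefSeq's GRCm38, the same build. Motifs were scanned on both strands with a script, in Python 3.11.15 with numpy 2.4.6, pandas 2.3.3, scipy 1.17.1 and pysam 0.24.0, and samtools 1.23.1 indexed the genome. Overlap and motif steps were tested on simulated data, where 2000 of 2000 peaks received the marks they were made with and 410 of 410 planted GREs were found. Shares carry exact 95% intervals, which cover counting error only. Reads from PCR are not independent molecules, which the intervals leave out too. No test between groups was possible with 1 library per antibody.

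The members, the 22 gene lists and the 18 motifs were chosen with earlier results of these data known. Named genes are those of the GR target list, the nearest genes of the 10 widest members, the 10 genes nearest to the most members, up to 3 genes with the most members in each other list, and the nearest genes of members with an exact GRE. Any other gene was chosen after its values were seen. Results for some of the motifs, for a gene that this rule names and for a large group of members are not reported here. The alternatives were other overlap rules, windows, mismatch limits, annotations, subsets of peaks and 1 member per H3K4me1 peak.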

Additional observations from a re-analysis of the deposited data

How the results depend on the processing

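No paired analysis was possible because each antibody had 1 library, and leaving out a replicate could not be tried. Under the 50% coverage rule a mark, H3K4me3 included, counted only where it covered at least 50% of the GR peak. Peaks with a smaller overlap with H3K4me3 could thus enter. The count of 4467 members was 2891 under this rule, 2385 in the widest 50% of GR peaks and 2396 in the first 50% of the list. The last alternative was added after seeing the data. In that order, the Pol2 share of 27.1% was 37.7%, 33.8% and 31.6%. It was 24.6% without H3K4me3 within 1 kb, 25.5% with 1 member per H3K4me1 peak (also added after seeing the data) and 17.0% when Pol2 had to cover 50% of the GR peak. The CTCF share of 2.10% was 1.63% under that last rule for CTCF. The share within 1 kb of a TSS, 4.97%, was 7.51% with 50% coverage, 2.44% without H3K4me3 within 1 kb, 12.9% with the TSS of all annotated genes and 20.1% with a window of 5 kb.

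The GRE share of 9.13% was 12.1% in the widest 50%, 13.9% in the first 50%, 1.79% with 1 mismatch, 0.112% with none, 6.92% in 100 bases and 11.1% in 400 bases. Genes with a member numbered 1571 in the widest 50%, 1610 in the first 50%, 742 within 5 kb and 6540 within 100 kb, against 2509. Pol2 at the nearest TSS, 62.1%, was 66.4% with 50% coverage, 60.2% without H3K4me3 within 1 kb and 60.1% with 1 member per H3K4me1 peak. The median width of 222 bases was 295 in the widest 50%, 270 in the first 50%, 229 with members within 1 kb merged and 241 with 1 member per H3K4me1 peak. Apart from changes made by the altered rules or subsets themselves, the cause was not tested.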
